A study of Mus musculus with 6 samples.

Results

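Ion channel genes of the cochlea were described here in mice exposed to sound, with and without delivery of mesenchymal stromal cells (MSC). The genes were selected on the authors' own comparison of these animals: genes that their 2 deposited lists, of genes down-regulated and up-regulated after MSC, name as a potassium channel subunit or partner, a hyperpolarization-activated (Hcn), chloride (Clcn, Clca), anoctamin (Ano), TRP, acid-sensing (Asic) or ATP-gated (P2rx1 and P2rx3 to P2rx7) channel gene. This gave 63 of the 41096 genes in the table, 43 from the first list and 20 from the second. The 63 are called channel genes below, though Trpc4ap and the antisense gene Kcnmb4os2 encode no channel and match by symbol alone. Since the values of these 6 libraries chose the genes, the differences between the groups below are a description and not evidence of regulation. Channel genes outside the lists carry no name in the files and were not analysed here.

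All animals were C56Bl/6 mice (the labels' spelling), female and 4 weeks old per the methods. All were exposed to sound at 16 kHz, called narrow band noise in the study's abstract and a pure tone in its methods. Per the methods it lasted 4 h and was given to the left ear. The sound trauma group (specimens 6, 8 and 10) was noise exposed only by the labels and received artificial perilymph by the methods, and the MSC treated group (specimens 13, 18 and 20) received human MSC from Wharton's jelly, the connective tissue of the umbilical cord (3 cords, passage 5). Both injections went into the posterior semicircular canal 48 h after the sound. Total RNA of the left cochlea was taken 2 days after treatment by the labels and 72 h after it by the methods, with 1 library per animal and n = 3 per group. The MSC were human and the counts were made on a mouse genome. Each library held between 9170390 and 11030863 reads on genes. Values are scaled counts, in which each library was multiplied by 1 factor, and they are always given in the order of specimens 6, 8 and 10 for sound trauma and 13, 18 and 20 for MSC treated animals. A value of 3 reads or fewer was taken as the detection floor, which covers counting error only. A log2 fold change is MSC treated minus sound trauma on the log2(scaled count + 1) scale, with its standard error (SE) from limma where the gene passed the filter on low values, and it understates the change of low genes.

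The inner ear depends on potassium more than most tissues. Sound opens transduction channels on hair cells, potassium enters from the endolymph, and supporting cells and fibrocytes carry it back to the stria vascularis, where channels such as KCNQ1 with KCNE1 and the inward rectifier KCNJ10 return it to the endolymph and maintain the endocochlear potential. Neurons of the auditory nerve and brain use voltage-gated, inward rectifier and leak potassium channels to set their resting potential and firing rate, and skeletal muscle uses the chloride channel CLCN1 to repolarize.

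**Figure D1:**
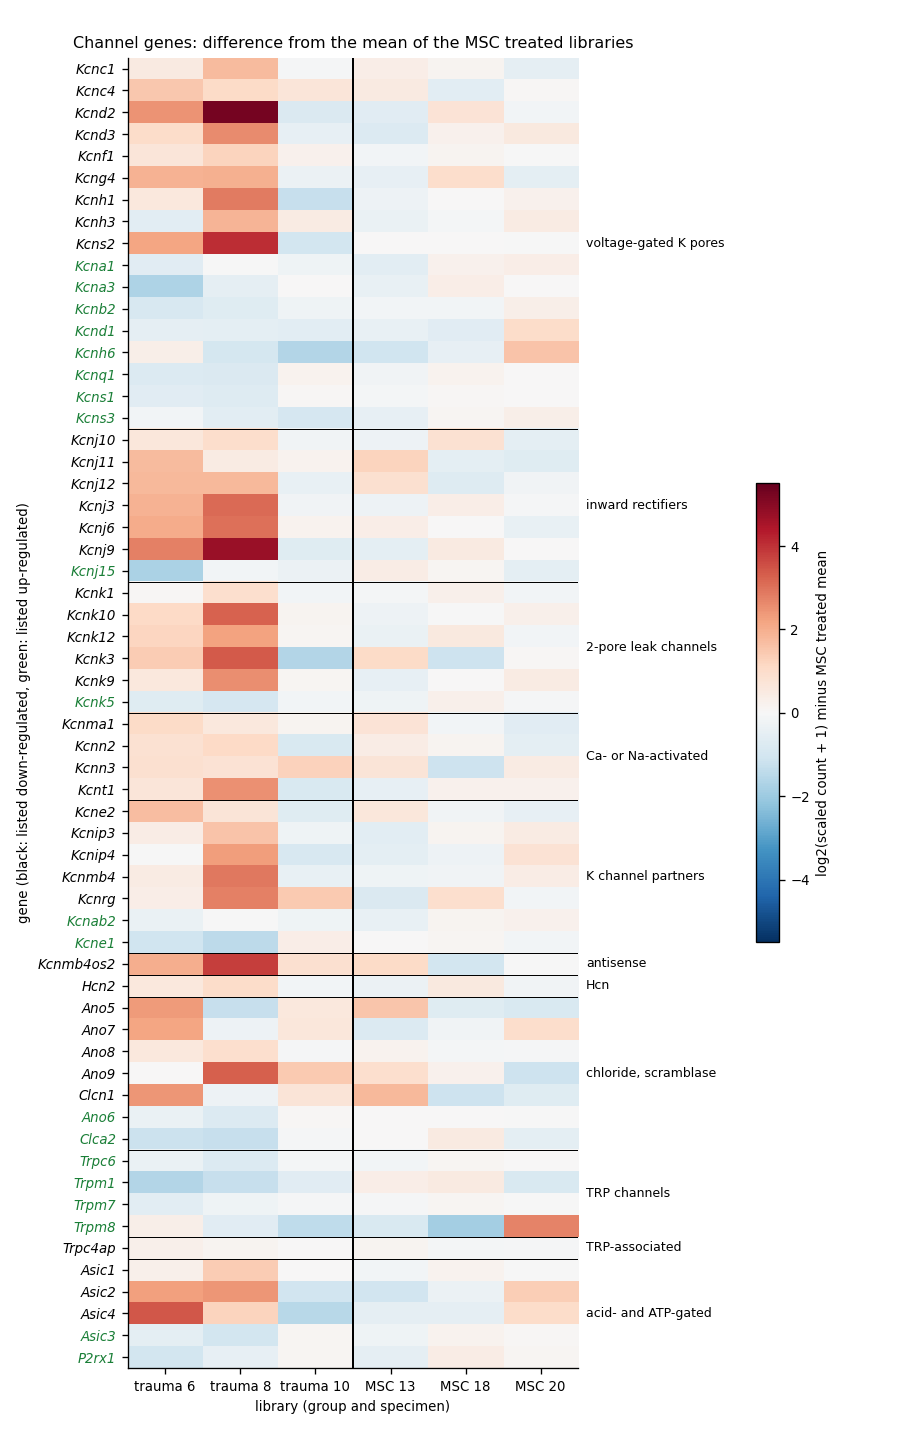
Channel genes (60 of the 63, rows, grouped by role) in the 6 libraries (columns), coloured by log2(scaled count + 1) minus the MSC treated mean. The strongest red is in sound trauma specimen 8, chloride genes Clcn1 and Ano5 are red in specimens 6 and MSC 13, and sound trauma specimen 10 looks pale, like the MSC treated columns.

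The median log2 fold change was -0.95 over the 43 down-listed and 0.54 over the 20 up-listed channel genes, beside -0.52 over all 2741 down-listed genes, 0.36 over all 1137 up-listed genes and 0.00 over the 15970 genes tested. The sizes ranged from -2.31 for Kcnd2 to -0.15 for Trpc4ap in the down list, and from 0.20 for Kcnab2 to 1.17 for Trpm1 in the up list. Trpc4ap, which encodes no channel, and Kcnab2 had the smallest differences among the 63 genes, and genes just outside the lists have no name to set beside them. The 2 groups were seldom apart. Of the 43 down-listed channel genes, 3 (Kcnc4, Kcnf1 and Kcnn3; 6.98%) had all sound trauma values above all MSC treated values, beside 11.4% of all down-listed genes and 2.92% of the genes tested. Of the 20 up-listed channel genes, 1 (Kcnb2) had all MSC treated values above all sound trauma values, beside 19.5% of all up-listed genes and 4.25% of the genes tested. Kcnf1 and Kcnb2 were singled out after their values were seen. Of the 63 genes, 55 passed the filter on low values. In limma, 0 of these 55 and 0.0% of all genes tested had an adjusted p under 0.05, and at an unadjusted p under 0.05 there were 3 of the 55 (Kcnb2, Kcnc4 and Trpm1) beside 2.35% of all genes tested. The edgeR quasi-likelihood test, limma-voom and DESeq2 also gave 0 of these genes, and 0.0% of all genes, at an adjusted p under 0.05. At an unadjusted p under 0.05 they gave 7 of the 55 in edgeR (3.29% of all genes tested), 2 in limma-voom (2.19%) and 13 in DESeq2 (5.0%).

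The sound trauma animals differed widely among themselves. Of the 43 down-listed channel genes, 33 had their highest value in sound trauma specimen 8 and 9 in sound trauma specimen 6, which is 76.7% and 20.9%. The shares were 69.0% and 29.2% of all 2741 down-listed genes and 28.2% and 21.1% of all genes tested. In 30 of the 43 (69.8%), specimens 6 and 8 both lay above all 3 MSC treated values, beside 58.5% of all down-listed genes and 15.6% of all genes tested. Sound trauma specimen 10 lay within the range of the MSC treated values in 25 of the 43 (58.1%) and below it in 13 (30.2%). It lay within that range in 57.2% of all down-listed genes and 55.8% of all genes tested, so this share is near that of the background, and below it in 22.4% and 21.9%. High values in specimens 6 and 8 are likewise a feature of the down list as a whole. Set against the mean of the MSC treated animals, the median of the 43 genes was higher by 1.95 (log2) in specimen 8 and by 0.88 in specimen 6, and was at -0.14 in specimen 10. The same medians were 1.10, 0.60 and -0.02 over all down-listed genes and -0.01, -0.04 and 0.00 over all genes tested. Of the 20 up-listed genes, 12 had both specimens 6 and 8 below all MSC treated values, beside 74.0% of all up-listed genes and 18.9% of all genes tested. The median differences from the MSC treated mean were -0.63, -0.68 and -0.12 in specimens 6, 8 and 10, beside -0.57, -0.42 and -0.04 over all up-listed genes. With any 1 animal left out, the median log2 fold change stayed between -1.35 and -0.51 in the down-listed and between 0.41 and 0.71 in the up-listed channel genes. Without specimens 6 and 8, which leaves specimen 10 as the only sound trauma library, the sign turned in 25 of the 43 down-listed and 7 of the 20 up-listed genes, and the medians came to 0.14 and 0.12. The sign turned in 53.0% of all down-listed and 39.9% of all up-listed genes as well, with medians of 0.02 and 0.04. It turned in 47.4% of all genes tested. The lists were drawn from the same libraries, so the medians without the 2 that stand farthest out are a description only. This last comparison was added after the data were seen.

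**Figure D2:**
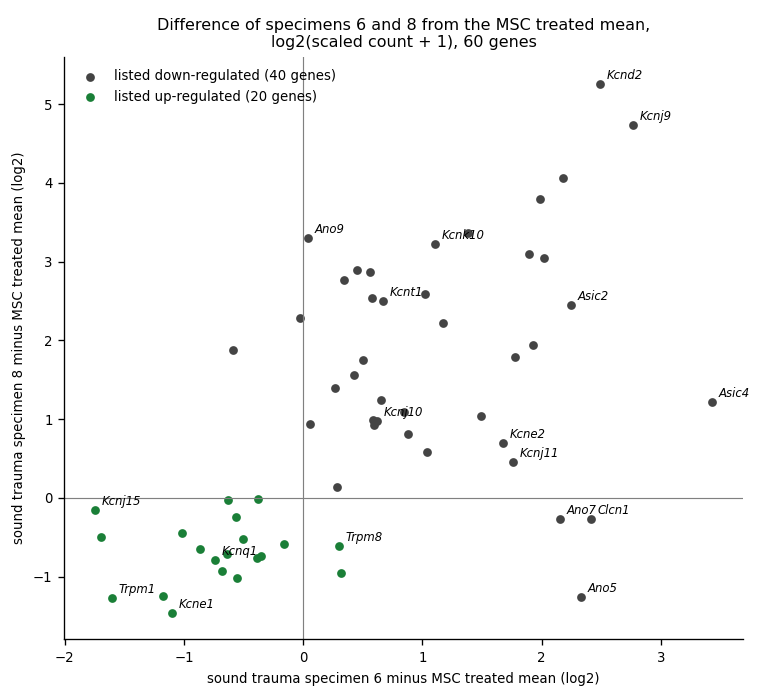
Difference of sound trauma specimen 6 (horizontal axis) and specimen 8 (vertical axis) from the mean over MSC treated animals, on the log2(scaled count + 1) scale, 1 point per gene for 60 of the 63 genes, grey for down-listed and green for up-listed genes. Most down-listed genes lie high on the axis of specimen 8, while Clcn1, Ano5 and Ano7 lie to the right on the axis of specimen 6 and at or below 0 on that of specimen 8.

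Spread among animals of 1 group was wide. The SD was a median of 33.0% of the mean in the MSC treated group and 64.5% in the sound trauma group over the 63 channel genes, beside 22.4% and 58.2% over all down-listed genes, 11.8% and 23.2% over all up-listed genes and 13.2% and 22.9% over the 15970 genes tested. The channel genes include 8 that did not pass the filter, whose counts are low.

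Marker genes of other tissues moved across the same libraries. The 10 named of 11 markers of brain and cerebellar neurons (Gabra6, Cbln1, Snap25 and others) summed to 8743, 41288 and 4268 scaled counts in the sound trauma libraries and 4443, 6443 and 5629 in the MSC treated libraries, and all 10 were highest in specimen 8. The 11 named of 12 skeletal muscle markers (Acta1, Myh4, Ckm and others) summed to 902929, 36716 and 211498 against 514286, 78113 and 85886. All 11 were highest in specimen 6, where they took 8.01% of all scaled counts. Choroid plexus markers (5 of 5 named) summed to 8145, 5508 and 352 against 303, 409 and 298. Pituitary markers (4 of 4 named) summed to 295521, 3591 and 1242 against 11656, 1267 and 22155, with Pou1f1 at 0 in a library, and keratinocyte markers (3 of 4) to 54.5, 834 and 29.5 against 26.0, 28.6 and 36.9, with Krt1 at 0 in a library. All named markers of these 5 tissues are on the down list, and a marker has a name only where the lists hold it, so these sums were selected on the same comparison. Inner ear markers were present in every library. The 3 named of 9 hair cell markers (Pou4f3, Otof and Lhfpl5) summed to 291, 272 and 674 against 513, 637 and 488, and the 2 named of 6 markers of the spiral ligament and otic matrix (Otog and Otoa) to 1421, 1584 and 3612 against 2423, 3062 and 2605. These sums were lowest in specimens 6 and 8. All named markers of both are on the up list, so these sums too were selected on the same comparison, and nothing is read from them. The 2 named of 9 stria vascularis markers (Atp1b2 and Met) summed to 6770.4, 10065 and 5013 against 5074, 5309 and 3889.6. This sum is mostly Atp1b2, which is listed down, while Met is listed up. Macrophage markers (3 of 4 named, all on the up list) summed to 1140.4, 1154 and 2155 against 1921, 1836 and 1943. None of the 6 markers of the spiral ganglion and peripheral nerve is named in the files. The part of these tissues in the channel values was not tested. In whole tissue, fewer cells of a type and less RNA per cell cannot be told apart.

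**Figure D3:**
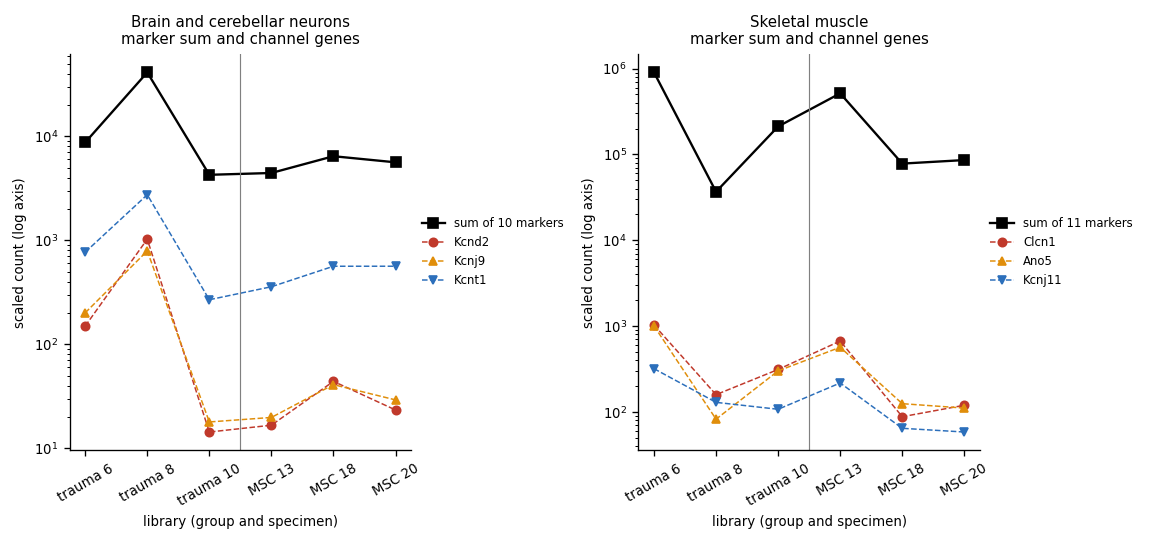
Summed scaled counts of the named markers (black squares) and scaled counts of channel genes (coloured), by library on a log axis, for brain and cerebellar neurons (left) and skeletal muscle (right). Kcnd2, Kcnj9 and Kcnt1 peak in sound trauma specimen 8 with the neuron sum, and Clcn1, Ano5 and Kcnj11 are highest in sound trauma specimen 6 and next highest in MSC treated specimen 13, as the muscle sum is.

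Levels can be set side by side between genes only per length, for which the authors' mean FPKM (fragments scaled by gene length and by reads) of each group is used, without an error. In the MSC treated group high values were those of Kcnab2 (38.4), Ano6 (34.9), Asic3 (26.3), Hcn2 (25.5), Kcnk1 (24.7) and Kcnj10 (22.5). Kcns2 was the lowest in the MSC treated group, at 0.0239. Kcnd2 was at a mean FPKM of 7.88 for sound trauma and 0.567 after MSC.

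Voltage-gated potassium pores made up 19 of the 63 genes, 11 listed down and 8 listed up, and of the 11 listed down, 10 were highest in specimen 8. Kcnd2, which carries the fast inactivating A-type current of neuronal dendrites, had the largest log2 fold change of the 63 genes. Its scaled counts were 149.5, 1026 and 14.3 against 16.6, 43.9 and 23.3. Specimen 8 stood 36.7 times and specimen 6 5.35 times above the MSC treated mean, while specimen 10 was below all 3 MSC treated animals. The log2 fold change was -2.31 (SE 1.43). It came to -0.84 without specimen 8, -3.88 without specimen 10 and 0.81 without specimens 6 and 8.

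The promoter window of Kcnd2, from 250 bases before to 50 bases after the start of transcription (RefSeq, GRCm38.p6, chr6:21215096-21215395, plus strand), is shown because this gene differed most between the groups. Capitals mark the GC box letters GGGCGG, which were searched on both strands.
Kcnd2: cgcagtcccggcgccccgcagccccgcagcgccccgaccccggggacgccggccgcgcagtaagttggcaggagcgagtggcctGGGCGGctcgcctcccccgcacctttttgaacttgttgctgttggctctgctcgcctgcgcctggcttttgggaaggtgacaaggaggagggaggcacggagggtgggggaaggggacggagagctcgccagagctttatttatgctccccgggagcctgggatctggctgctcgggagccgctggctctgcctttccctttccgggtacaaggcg
Among the channel genes, 45 of the 63 had a window in the RefSeq table. GC box letters were in 21 of the 45 (46.7%), beside 35.9% of all 27025 windows, and the TATA letters TATAAA, also searched on both strands, in 4 of the 45 (8.89%), beside 14.2%. Windows of genes highest in specimen 8 held the GC box letters in 10 of 22 cases (45.5%), those of down-listed genes in 14 of 30 (46.7%) and those of up-listed genes in 7 of 15 (46.7%). The median GC content was 60.7% for the 45 windows, 60.5% for the 30 down-listed and 62.0% for the 15 up-listed among them, beside 52.7% for all windows. By these counts the down-listed and up-listed windows differed little, and no test was run.

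The Kcnc genes encode the high-threshold channels that let neurons fire at high rates, such as those of the auditory brainstem and cerebellum. Kcnc1 had 1868, 4463 and 1281 against 1678, 1451 and 947 scaled counts. Specimen 8 was far above the other 5 libraries, by a factor of 2.39 over the next, and specimen 10 lay among the MSC treated animals. Kcnc4 behaved otherwise, with 743, 542 and 419.9 against 376, 175 and 277: its highest value was in specimen 6, the groups did not overlap, and the log2 fold change of -1.07 (SE 0.33) was -0.67 without specimens 6 and 8.

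Kcng4 and Kcns2 encode silent subunits, which form no channel alone and modify the Kcnb pores they join. Kcng4 had 286, 289.7 and 59.9 against 54.0, 148 and 51.4 scaled counts, so that specimens 6 and 8 were about equal. Kcns2 had 8.11, 32.5 and 0 against 1.04, 1.02 and 0.971, at or under the floor of 3 reads in 4 of the 6 libraries, and its difference rested on specimens 6 and 8 alone. Kcnd3, Kcnf1, Kcnh1 and Kcnh3, down-listed pores outside the naming rule, were all highest in specimen 8, with log2 fold changes from -1.05 to -0.57. Kcnh1 and Kcnh3 changed sign without specimen 8.

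Among the 8 up-listed pores the differences were smaller, with log2 fold changes from 0.30 to 0.75. Kcna1, the low-threshold channel that keeps auditory neurons firing once per stimulus, had 578, 879.6 and 753 against 590.1, 1058 and 1147 scaled counts. The groups overlapped, since specimens 8 and 10 lay above MSC treated specimen 13. Kcnh6, an ether-a-go-go related channel, had 26.7, 10.5 and 6.25 against 9.35, 15.3 and 64.1. Only MSC treated specimen 20 was above specimen 6, and leaving specimen 20 out moved the log2 fold change from 0.75 (SE 0.82) to -0.02. Kcnd1, from the same family as Kcnd2 and named after its values were seen, had 92.7, 91.8 and 88.4 against 98.7, 85.8 and 269.9 scaled counts, flat in 5 libraries and higher in specimen 20. Kcnb2 was the gene whose MSC treated values all lay above the sound trauma values, at 82.3, 95.6 and 128 against 134, 137 and 187, a log2 fold change of 0.59 (SE 0.24). The other up-listed pores (Kcna3, Kcns1 and Kcns3, outside the naming rule) had log2 fold changes from 0.43 to 0.73, with specimen 10 above or among the MSC treated values for Kcna3 and Kcns1 and below them for Kcns3.

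**Figure D4:**
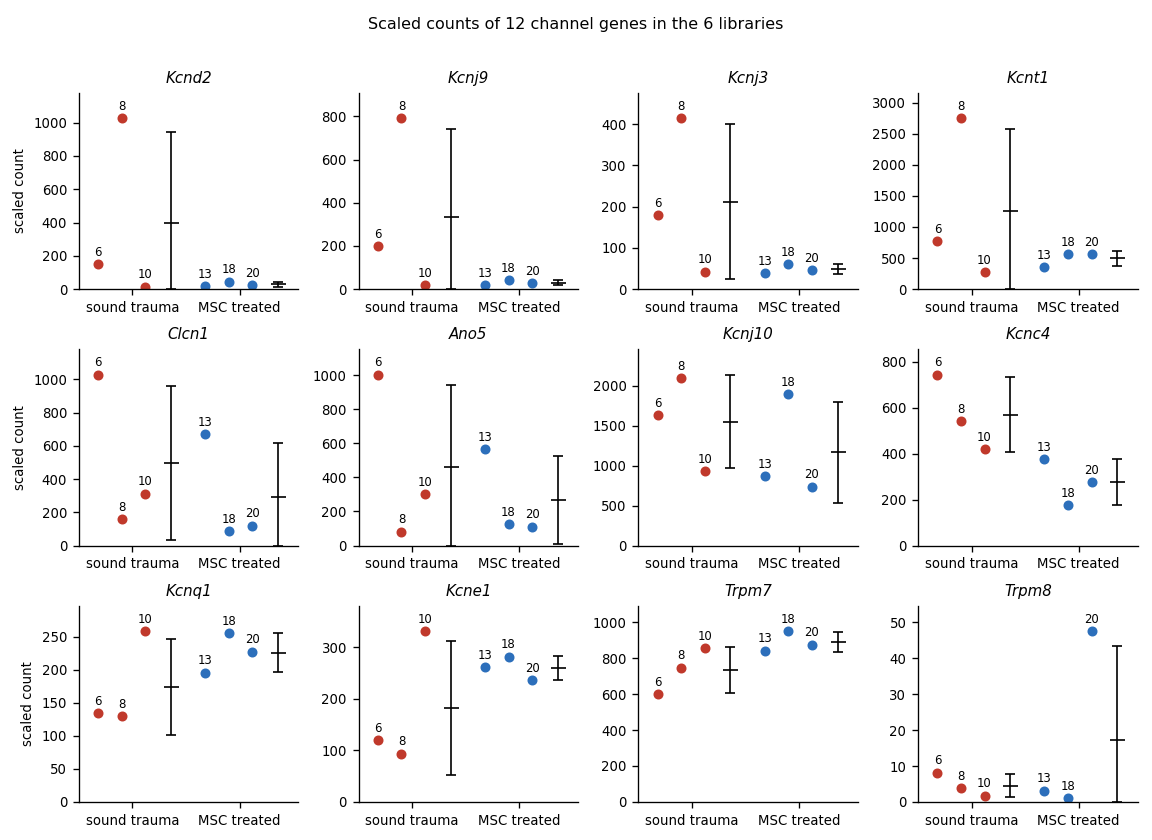
Scaled counts of 12 channel genes in each library (points, labelled by specimen), with the mean and SD of each group (n = 3, bars, the lower end drawn no lower than 0). Specimen 8 is highest for Kcnd2, Kcnj9, Kcnj3 and Kcnt1, specimen 6 for Clcn1 and Ano5, specimens 6 and 8 are lowest for Kcnq1 and Kcne1, and specimen 20 alone is high for Trpm8.

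KCNQ1 and KCNE1 are the pore and the partner through which marginal cells of the stria vascularis, and dark cells of the vestibular organs, secrete potassium into the endolymph. Kcnq1 had 134, 130.0 and 258 against 195, 255 and 227 scaled counts and Kcne1 had 121, 93.7 and 331 against 262, 282 and 237. Both genes were low in specimens 6 and 8 and highest in specimen 10, so that the third sound trauma animal lay above every MSC treated animal. The log2 fold changes of 0.44 (SE 0.30) and 0.74 (SE 0.46) turned to -0.20 and -0.35 without specimens 6 and 8. The ratio of Kcne1 to Kcnq1 scaled counts was 0.897, 0.721 and 1.28 against 1.34, 1.10 and 1.04, lowest in specimens 6 and 8. Of the marker sums given above, those of hair cells and otic matrix were lowest in the same libraries, while that of the stria vascularis was highest in them. The named hair cell and otic matrix markers are all on the up list, as Kcnq1 and Kcne1 are. They were thus chosen on the same comparison, and nothing is read from this likeness. In the mouse annotation (GENCODE M21), exons of Kcnq1 overlap those of the antisense gene Kcnq1ot1, and whether counting used strand is not given in the sources used here, so reads in the 121 shared bases cannot be told apart. Of the 63 genes, 20 share exon bases with a gene on the opposite strand, from 1 base (Kcnh3) to 1621 bases (Kcnj3), and 1 more, Kcnab2, shares exon bases with a gene on its own strand.

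Of 19 genes of cochlear potassium cycling, 7 are named in the files, 4 listed down and 3 listed up, and 0 of the 7 passed an adjusted p of 0.05 in limma. Beside Kcnq1 and Kcne1 these included Kcnj10, Kcnn2 and Kcnma1, and the transport gene Atp1b2, which is not a channel. Atp1b2, a sodium pump subunit of the stria and of neurons and glia, had 6561, 9890.4 and 4765 against 4704, 4969.6 and 3634 scaled counts, highest in specimens 8 and 6. The list therefore held genes high in specimens 6 and 8 and genes low in them. The other 12 genes of the list have no name in the files and were not analysed here.

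Inward rectifiers were 7 genes, 6 listed down and 1 listed up. KCNJ10 carries potassium in intermediate cells of the stria vascularis and in glia, including the satellite cells of the spiral ganglion. Kcnj10 had 1633, 2089.9 and 929 against 865, 1891 and 737 scaled counts. Specimens 6 and 8 were high, MSC treated specimen 18 was as high, and the log2 fold change was -0.46 (SE 0.44). Kcnj9, Kcnj3 and Kcnj6 encode subunits of the G protein-gated channels that slow neurons when transmitters bind their receptors. Kcnj9 had 200.5, 791 and 17.9 against 19.7, 40.9 and 29.1 scaled counts. Kcnj3 had 179.6, 414 and 41.99 against 38.4, 61.3 and 45.6. Kcnj6 had 15.1, 31.5 and 3.57 against 4.16, 3.06 and 1.94, at or under 3 reads in 2 libraries. All 3 genes shared the order of specimen 8 first and specimen 6 next, with specimen 8 at 26.4, 8.54 and 10.3 times the MSC treated mean for Kcnj9, Kcnj3 and Kcnj6. For Kcnj9 the log2 fold change of -2.28 (SE 1.27) moved to -1.05 without specimen 8, -3.75 without specimen 10 and 0.65 without specimens 6 and 8.

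Kcnj9 and Kcnj10 are neighbouring protein-coding genes, and their promoter windows are shown because these neighbours differed in how far specimens 6 and 8 stood above the other libraries. The Kcnj9 window lies at chr1:172329273-172329572 on the minus strand and the Kcnj10 window at chr1:172340960-172341259 on the plus strand (RefSeq, GRCm38.p6), each printed along its own gene. Capitals mark the TATA letters and the MEF2 motif in Kcnj9 and 3 GC boxes, on either strand, in Kcnj10.
Kcnj9: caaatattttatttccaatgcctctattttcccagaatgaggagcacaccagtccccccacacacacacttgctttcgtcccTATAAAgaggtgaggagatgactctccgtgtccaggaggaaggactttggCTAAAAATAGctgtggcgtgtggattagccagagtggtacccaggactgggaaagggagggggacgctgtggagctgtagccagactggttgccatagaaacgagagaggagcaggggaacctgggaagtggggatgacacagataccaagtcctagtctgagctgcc
Kcnj10: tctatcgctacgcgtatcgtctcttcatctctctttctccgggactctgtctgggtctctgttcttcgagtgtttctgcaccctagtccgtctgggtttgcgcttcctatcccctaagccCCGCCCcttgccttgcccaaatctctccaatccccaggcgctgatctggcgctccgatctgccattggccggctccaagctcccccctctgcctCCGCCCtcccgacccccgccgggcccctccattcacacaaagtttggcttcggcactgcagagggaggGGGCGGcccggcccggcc
The ratio of Kcnj10 to Kcnj9 scaled counts was 8.14, 2.64 and 52.0 against 43.8, 46.3 and 25.3. It was lowest in specimen 8, next lowest in specimen 6, and in specimen 10 above every MSC treated animal. The exons of Kcnj9 also overlap an antisense gene in GENCODE M21, with which its reads could be mixed.

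The remaining inward rectifiers differed from these in the animals that were high. KCNJ11 is the pore of the ATP-sensitive channel of muscle, pancreatic beta cells and neurons, and Kcnj11 had 319, 129 and 107 against 217, 64.3 and 58.2 scaled counts, highest in specimen 6 and next in MSC treated specimen 13. Kcnj12, a strong rectifier of muscle and neurons, had 437, 439.8 and 94.7 against 236, 76.6 and 112, with specimens 6 and 8 about equal and specimen 13 next. Kcnj15, the up-listed gene of the group, had 49.8, 152 and 134 against 225, 185 and 116, low in specimen 6 alone, and without that specimen its log2 fold change went from 0.75 (SE 0.48) to 0.25.

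Leak channels of the Kcnk family hold the resting potential open to potassium. All 5 down-listed members were highest in specimen 8, and the up-listed Kcnk5 was lowest there. Kcnk1, the most abundant of the 6 Kcnk genes by the authors' mean FPKM, had 567, 1041 and 496 against 506, 655 and 489 scaled counts, with 5 libraries close together and specimen 8 above them. Its log2 fold change of -0.28 (SE 0.30) was 0.04 without specimen 8. Kcnk3 and Kcnk9 encode acid-sensitive leak channels of the brain stem and cerebellum, among other tissues. Kcnk3 had 214, 842 and 25.9 against 168, 36.8 and 86.4 scaled counts, spread widely in both groups, and its log2 fold change of -1.04 (SE 1.25) moved to 0.11 without specimen 8. Kcnk9 had 13.9, 57.4 and 9.83 against 6.23, 9.19 and 12.6. Kcnk10, a channel opened by stretch and lipids, had 23.2, 104 and 11.6 against 8.31, 10.2 and 12.6, with specimen 8 at 10.0 times the MSC treated mean. Kcnk12, a halothane-inhibited channel family member, had 111, 231 and 52.7 against 37.4, 71.5 and 43.7. In Kcnk9, Kcnk10 and Kcnk12, specimen 10 lay within the MSC treated range. Kcnk5, an epithelial leak channel that alkaline pH opens, had 91.6, 77.4 and 132 against 127, 179.7 and 142 scaled counts, a log2 fold change of 0.59 (SE 0.26).

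The 4 potassium channels activated by calcium or sodium were all listed down, and they did not peak in the same animal. KCNMA1 is the large-conductance channel of inner hair cells and neurons, and Kcnma1 had 399.8, 291 and 215 against 327, 177 and 125 scaled counts, highest in specimen 6 and next in MSC treated specimen 13. KCNN2 answers the calcium that efferent synapses let into hair cells, and Kcnn2 had 211, 249.5 and 64.3 against 154, 129.7 and 79.6. Specimen 10 was the lowest of the 6 libraries for Kcnn2, and the log2 fold change of -0.36 (SE 0.55) was 0.00 without specimen 8. Kcnt1, a sodium-activated channel of neurons, had 768, 2746 and 268 against 357, 563 and 563, and its log2 fold change of -0.77 (SE 0.79) moved to 0.09 without specimen 8. Kcnn3, a small-conductance channel, had 125, 119 and 165 against 111, 29.6 and 92.2. It was the only down-listed gene that was highest in specimen 10, its groups did not overlap, and its log2 fold change of -0.99 (SE 0.50) was -1.28 without specimens 6 and 8. MSC treated specimen 18 held the lowest Kcnn3 value, and without it the log2 fold change was -0.41.

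Partner genes alter the opening or the trafficking of the pores. Kcnip3 and Kcnip4 encode calcium-binding partners of the Kcnd pores. Kcnip3 had 302, 665 and 189 against 151, 247 and 308 scaled counts and Kcnip4 had 83.4, 419 and 46.5 against 59.2, 70.5 and 148. Both were highest in specimen 8 and next highest in MSC treated specimen 20. The log2 fold change of Kcnip4 went from -0.47 (SE 0.82) to 0.44 without specimen 8. The ratio of Kcnip4 to Kcnd2 scaled counts was 0.558, 0.408 and 3.25 against 3.56, 1.60 and 6.33, so the partner did not follow the pore in proportion. Kcnmb4, the neuronal beta subunit of the large-conductance channel, had 51.0, 280.1 and 27.7 against 31.2, 32.7 and 49.5 scaled counts. Its antisense gene Kcnmb4os2 had 6.95, 26.8 and 2.68 against 3.12, 0 and 0.971, at or under 3 reads in 4 of the 6 libraries. Both were highest in specimen 8, and their exons share 693 bases, so that reads of one cannot be told from reads of the other without strand. The ratio of Kcnmb4 to the pore Kcnma1 was 0.128, 0.964 and 0.129 against 0.0952, 0.185 and 0.395, highest in specimen 8.

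Kcne2, a single-span subunit of gastric and choroid plexus epithelium, had 57.9, 28.7 and 10.7 against 27.0, 15.3 and 12.6 scaled counts, highest in specimen 6, as the choroid plexus marker sum was. MSC treated specimen 13 was close behind specimen 8 for Kcne2 but not for those markers. Kcnrg, a soluble protein that holds back the assembly of voltage-gated pores, had 5.79, 35.4 and 13.4 against 2.08, 9.19 and 3.88, low counts that were highest in specimen 8. Kcnab2, a cytosolic beta subunit of the Kcna pores, was the up-listed gene with the smallest log2 fold change, 0.20 (SE 0.21), at 1554, 1997 and 1737 against 1521, 2248 and 2413, and the groups overlapped widely. Hcn2, a pacemaker channel of neurons and heart opened by hyperpolarization, had 1129, 1499 and 672 against 596, 1102 and 651 scaled counts. As for Kcnj10, MSC treated specimen 18 was high together with specimens 6 and 8, and the log2 fold change was -0.47 (SE 0.36).

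Of the 7 chloride and scramblase genes, Clcn1, Ano5 and Ano7 were highest in specimen 6. So were the potassium channel and partner genes Kcnc4, Kcnj11, Kcnma1 and Kcne2, while most potassium channel genes were highest in specimen 8. CLCN1 carries the resting chloride conductance of skeletal muscle, and Clcn1 had 1028, 159 and 312 against 669, 87.8 and 119 scaled counts. ANO5 is a muscle protein of membrane repair, and Ano5 had 1002, 82.2 and 300.2 against 566, 125 and 111. Specimen 6 was highest and MSC treated specimen 13 next in both genes, and specimen 8, the highest for most potassium channels, was the lowest library for Ano5. The log2 fold change of Clcn1 was -0.95 (SE 0.95). It was -0.21 without specimen 6, -1.56 without specimen 8 and -1.85 without MSC treated specimen 13. That of Ano5 was -0.55 (SE 1.02), and 0.33, -1.46 and -1.31 without the same specimens in turn. The skeletal muscle marker sum was highest and next highest in the same libraries, 6 and 13.

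The promoter window of Clcn1 (chr6:42286435-42286734, plus strand, RefSeq, GRCm38.p6) is shown for this muscle channel. Capitals mark the MEF2 motif, named for a factor of muscle and neurons, and the TATA letters lie within it. The motif was searched on both strands and was chosen after the sequences were seen.
Clcn1: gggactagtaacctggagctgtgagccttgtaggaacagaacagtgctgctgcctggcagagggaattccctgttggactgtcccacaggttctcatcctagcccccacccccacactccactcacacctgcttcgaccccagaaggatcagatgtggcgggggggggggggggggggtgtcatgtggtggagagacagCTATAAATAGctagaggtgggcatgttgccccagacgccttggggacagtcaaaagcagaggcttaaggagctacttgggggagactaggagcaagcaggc
The MEF2 motif was in 2 of the 45 channel gene windows (4.44%), those of Clcn1 and Kcnj9, beside 3.26% of all windows. The share is close to that of all windows, and the Kcnj9 gene was highest in specimen 8 and not in specimen 6. Exons of Clcn1 overlap those of the neighbouring gene Fam131b on the opposite strand over 445 bases in GENCODE M21.

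Of the other chloride and scramblase genes, Ano7 had 30.1, 4.78 and 9.83 against 3.12, 5.11 and 12.6 scaled counts, highest in specimen 6. Ano9 had 3.48, 42.1 and 10.7 against 7.27, 4.09 and 0.971, highest in specimen 8. Ano7 had 1 library and Ano9 had 2 at or under 3 reads. Ano8, which tethers the endoplasmic reticulum to the plasma membrane, had 509, 642 and 317 against 381, 308 and 323 scaled counts, with specimens 6 and 8 above the MSC treated animals and specimen 10 among them. ANO6 moves phospholipids across the membrane of platelets and other cells when calcium is high, and Ano6 had 1510.1, 1153 and 2014 against 1939.7, 1951 and 1898. It was lowest in specimen 8 and highest in specimen 10. The MSC treated values lay within an SD of 1.45% of their mean. Clca2, an epithelial gene whose product is cleaved and regulates chloride currents, had 31.3, 29.6 and 68.8 against 72.7, 103 and 49.5 scaled counts, low in specimens 6 and 8. Its log2 fold change was 0.83 (SE 0.43).

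TRP channels pass calcium and other cations in response to receptors, lipids, temperature or other signals. Trpc6, a receptor-operated channel of smooth muscle and kidney, was listed up and had 97.3, 74.6 and 119.7 against 116, 138 and 129 scaled counts, with specimen 10 among the MSC treated values. Trpm7, a magnesium-permeable channel with its own kinase, had 600.3, 748 and 855 against 842, 949.8 and 875 scaled counts, with an MSC treated SD of 6.24% of the mean. Specimen 6 was lowest and the log2 fold change was 0.29 (SE 0.16), or 0.15 without that specimen.

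Trpm1, a channel of melanocytes and retinal bipolar cells, had the largest log2 fold change of the up-listed genes, 1.17 (SE 0.48). Its scaled counts were 8.11, 10.5 and 17.0 against 34.3, 37.8 and 14.6, so MSC treated specimens 13 and 18 were high and specimen 20 lay between sound trauma specimens 8 and 10. Trpm8, the cold and menthol sensor of sensory neurons, had 8.11, 3.82 and 1.79 against 3.12, 1.02 and 47.6. A single animal, MSC treated specimen 20, held most of its reads, 3 of the 6 libraries were at or under 3 reads, and leaving specimen 20 out moved the log2 fold change from 0.57 to -0.78. Trpc4ap matches the rule by its symbol but encodes an adaptor protein of a ubiquitin ligase and not a channel. It had 2313, 2095 and 1937 against 2121, 1766 and 1824 scaled counts and the smallest log2 fold change of the down-listed genes, -0.15 (SE 0.14).

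Acid-sensing channels open when protons bind, and the 4 Asic genes were split between the lists. Asic1, the main proton sensor of central neurons, had 267, 583 and 222 against 197, 250.2 and 220.3 scaled counts, with specimen 8 high and specimen 10 within the MSC treated range. Asic2, which joins Asic1 in neurons and is present in mechanosensory cells, had 245, 281 and 24.1 against 23.9, 40.9 and 132, high in specimens 6 and 8 and also raised in MSC treated specimen 20. Asic3, the proton sensor of sensory neurons, was listed up at 416, 302 and 660.2 against 516, 692 and 639. It was lowest in specimen 8 and specimen 10 lay within the MSC treated range. The ratio of Asic3 to Asic1 scaled counts was 1.56, 0.518 and 2.97 against 2.62, 2.77 and 2.90, lowest in specimen 8 and next lowest in specimen 6. Asic4, whose product does not answer to protons alone, had 30.1, 5.74 and 0 against 1.04, 1.02 and 4.85 scaled counts, mostly in specimen 6, with 3 libraries at or under 3 reads. P2rx1, an ATP-gated channel of smooth muscle and platelets, had 152, 226 and 336 against 219, 405 and 332. Specimen 6 was lowest and specimen 10 lay within the MSC treated range. The log2 fold change was 0.45 (SE 0.35), or 0.17 without specimen 6.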

How the data were processed

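RNA was sequenced from the left cochlea. Per the methods, the authors made libraries with the NuGen Universal Plus kit and trimmed, checked and aligned reads with the AIR package to the C57BL/6NJ genome. The counting tool and its use of strand are not given in the sources used here. The methods state 5 animals per group, and 6 libraries, 3 per group, were analysed here.

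The deposited signal of a gene is its number of reads after scaling by the authors, with a single factor for each library. Dividing by the smallest step gave whole reads for 100% of the values, within 0.01 reads, and these reads were used where a test needed counts. No column of the table lay outside the 6 libraries. The authors' 2 lists of changed genes, made with NOISeq, give a symbol, the mean FPKM of each group, and a fold change and FDR. The symbols, the list a gene is on and the mean FPKM were used, and the fold changes and FDR were not.

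Symbols starting with Kcn, Hcn, Clcn, Clca, Ano, Trpa, Trpc, Trpm, Trpv or Asic, and P2rx1 and P2rx3 to P2rx7, were kept, which gave 63 of the 3716 named genes. The genes and all gene lists were chosen with earlier results of these data known. Genes named with all values are, in each role group, the 6 with the highest mean and the 3 with the largest fold change, those of the potassium cycling list, and Kcnd2, Kcns2, Kcnh6 and Trpm8, which the study names. A gene outside this rule appears only with that remark or as part of a range. Values of some genes are not reported here, though counts and medians include them.

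Of 25369 genes with a read, 15970 passed edgeR's filterByExpr on the recovered reads. They were tested together with limma-trend on log2(scaled count + 1), with Benjamini-Hochberg adjustment over all of them. The p-values measure the spread between 3 animals per group. The edgeR quasi-likelihood test, limma-voom and DESeq2 were run on the recovered reads, which the design had foreseen for values that prove to be counts. The fits were tested on simulated data first. Alternatives were other scalings, filters and pseudocounts and leaving out libraries. Promoters came from RefSeq (GRCm38.p6) and overlaps and neighbours from GENCODE M21, matched by symbol, for which all 63 genes had an entry in GENCODE. These builds differ from that of the files, so no coordinates of the files were used. The fits ran in limma 3.58.1, DESeq2 1.42.0 and edgeR 4.0.16 under R 4.3.3, and the rest in pandas 2.3.3, numpy 2.4.6 and matplotlib 3.10.9 under Python 3.11.15.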

Additional observations from a re-analysis of the deposited data

How the results depend on the processing

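With 3 animals per group and a wide spread, single genes could not be separated. No gene of the 63 passed an adjusted p of 0.05 under any of the scalings, filters, pseudocounts, left-out libraries or other tests that were run. The median log2 fold change of the down-listed genes stayed between -1.35 and -0.51, and that of the up-listed genes between 0.41 and 0.71, when each library was left out in turn. Without sound trauma specimens 6 and 8 together, an alternative added after the data were seen, these medians moved to 0.14 and 0.12, beside 0.02 and 0.04 over all down-listed and all up-listed genes. The count of genes with all sound trauma values above all MSC treated values (3) ranged from 3 to 30 over the left-out libraries. All of these are down-listed. It was 30 without sound trauma specimen 10, which is 69.8% of the 43, beside 58.5% of all down-listed genes and 15.6% of all genes tested. It was 9 (20.9%) without MSC treated specimen 13, beside 25.4% and 8.38%, and 10 (23.3%) without specimen 18, beside 19.5% and 5.70%. It was 5 (11.6%) without specimen 6, beside 18.2% and 7.45%, and 5 without specimen 20, beside 16.3% and 5.39%. The count in the other direction (1) ranged from 1 to 12, all among the 20 up-listed genes. It was 12 without sound trauma specimen 10, beside 74.0% of all up-listed genes and 18.9% of all genes tested, and 8 without MSC treated specimen 13, beside 478 of all 1137 up-listed genes and 10.5% of all genes tested. It was 2 (10.0%) without specimen 6, beside 22.1% of all up-listed genes and 6.98% of all genes tested. It was 2 (10.0%) without specimen 18, beside 28.1% and 6.75%, and 4 (20.0%) without specimen 20, beside 26.5% and 6.89%. Leaving out a library makes a count without overlap easier to reach. The count of genes highest in specimen 8 (33) was between 25 and 36 under the other scalings, filters and left-out libraries. The sign of 7 genes turned without specimen 8 (Kcnh1, Kcnh3, Kcnip4, Kcnk1, Kcnk3, Kcnn2 and Kcnt1), of 2 without specimen 6 (Ano5 and Asic4) and of 2 without MSC treated specimen 20 (Kcnh6 and Trpm8). Of the 63 genes, 8 had a library at or under 3 reads, so their ratios carry little. No paired analysis was possible because the 2 groups share no specimen number.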
